A study of Mus musculus with 12 samples.

Results

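The carboxylesterase genes described here are Ces1b, Ces1c, Ces1d, Ces1e, Ces1f, Ces1g, Ces2a, Ces2e, Ces3a and Ces3b. They were taken by symbol from the table of ribosome footprints of mouse liver, where they make up 10 of 25033 entries. All 10 passed the filter on low values that left 5758 genes for testing. The libraries came from livers of male C57BL/6 mice that were 16 weeks old and had been on their diets for 8 weeks. HFD mice (n = 3) ate a high-fat feed, and LYC mice (n = 3) ate high-fat feed with lycopene, the red carotenoid of tomato. Both groups therefore shared the high-fat feed, and no animals on standard feed were sequenced in the libraries used here. In the labels the LYC samples carry the high-fat diet alone as their treatment, and lycopene is known from their titles and from the methods of the study. The study treats the libraries of a group as biological replicates, and the titles number 3 samples a group. The labels also speak of RNA or footprints being pooled by group, a step for which the methods write prepared, and both sources pool digested samples ahead of the sucrose cushion. The sources thus leave some doubt whether a library stands for 1 animal, and p-values measure the spread between these libraries.

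Carboxylesterases are serine hydrolases that sit in the lumen of the endoplasmic reticulum or are secreted, and hepatocytes are among their richest sources. They split ester bonds in triglycerides, cholesteryl esters and many drugs. In the liver, some of them release fatty acids from stored triglyceride, which can be reused to build very-low-density lipoprotein (VLDL). Mouse has many more of these genes than human, in tandem arrays of recent copies. Ces1d is the enzyme long called triacylglycerol hydrolase, Ces1f is a close relative with a similar activity, Ces1g takes part in the control of hepatic lipid output, Ces1e is also known as egasyn and holds beta-glucuronidase in the endoplasmic reticulum, and Ces1c is the main carboxylesterase of mouse plasma.

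All 10 genes lie on chromosome 8 of GRCm38 in 2 tandem arrays. The 6 Ces1 genes are on the minus strand, from Ces1b at chr8:93056725-93080017 to Ces1g at chr8:93302369-93337209, with Ces1c, Ces1d, Ces1e and Ces1f between them in that order. On the plus strand follow Ces2a at chr8:104734003-104741634, Ces2e at chr8:104926260-104934672, Ces3a at chr8:105048576-105061928 and Ces3b at chr8:105083733-105093929. Their RefSeq transcripts have 12 to 14 exons and coding sequences of 1566 to 1704 bases. Similarity between copies decides how well reads can be told apart. The coding sequences of Ces3a and Ces3b were 95.1% identical and those of Ces1b and Ces1c 91.2%, followed by Ces2a with Ces2e at 83.3% and Ces1d with Ces1g at 81.6%.

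The end of each coding sequence shows this likeness and also a feature of the protein. Below, the last 30 bases of the coding sequence are given from RefSeq transcripts, with the last 4 codons before the stop codon in capitals. These codons make up the position where many carboxylesterases carry the signal by which receptors return them to the endoplasmic reticulum.
Ces1b: gaccctactgagcacAGAGAACACAAAtga
Ces1c: gaccctactgaacacACAGAACACAAAtga
Ces1d: ccatcccacagggaaCATGTTGAGCTCtga
Ces1e: caactgccgacagaaCACACTGAGCTGtga
Ces1f: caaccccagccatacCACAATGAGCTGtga
Ces1g: tcatcccatagggaaCATGTTGAACTGtga
Ces2a: ggttctcaggacaagCATGCAGAGCTGtag
Ces2e: gggtctcaggagaggCACAAAGAGTTGtag
Ces3a: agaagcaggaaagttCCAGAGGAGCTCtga
Ces3b: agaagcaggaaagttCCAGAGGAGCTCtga
Ces3a and Ces3b were identical over these 30 bases, and Ces1b differed from Ces1c at 2 of them. Between Ces1b and any other member the difference was 20 to 22 bases. Capitals that start with CA, go on with GA at the start of codon 3 and have T in the middle of codon 4 were found in 6 of the 10 members, namely Ces1d, Ces1e, Ces1f, Ces1g, Ces2a and Ces2e. Across 21683 coding genes, searched on the coding strand at the same place, 82 had this pattern (0.378%). It was not found at the end of Ces1b, Ces1c, Ces3a or Ces3b, and these are also the 4 members with the highest mean RPKM in HFD. Outside the members it was also missing in Ces1a, Ces2f, Ces4a and Ces5a, which were listed at 0 to 21.6 mean RPKM in HFD. It was found in Ces1h, and in Ces2b, Ces2c, Ces2g and Ces2h, which had 0.472 to 27.5. A relation between the pattern and the level was not tested.

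The codon of the active-site serine, which carries out the hydrolysis, starts at base 661 of the coding sequence in Ces1b and Ces1c and at base 694 in Ces3a and Ces3b. It is shown in capitals for the most alike pair of members on each strand.
Ces1b: gtctttgggtcaTCAgcaggaggtgtcagt
Ces1c: atctttggagagTCAtcagggggtatcagt
Ces3a: atcttcggtaacTCTgctggaggcattatt
Ces3b: atcttcggtaacTCTgctggaggcatgatt
Ces1b and Ces1c differed at 8 of these 30 bases, and Ces3a and Ces3b at 1.

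Ribo-seq reads are short, so the share of a coding sequence that another gene could also supply was measured with stretches of 28 bases. In Ces3a 50.6% and in Ces3b 45.5% of the stretches also occurred in the other gene, and in no further gene. Of the stretches of Ces1b 22.5% occurred in Ces1c, and 27.8% occurred in any other gene. For Ces1c 33.8% occurred in any other gene. In Ces2a the share was 47.3%, of which the pseudogene Gm7208 alone matched 38.5%. It was 17.1% in Ces2e and between 8.08% and 12.8% in Ces1d, Ces1e, Ces1f and Ces1g. With 2 mismatches allowed, 61.0% of the stretches of Ces1b matched Ces1c and 69.3% of those of Ces3b matched Ces3a. At this limit, the share that matched any other gene of the family was 56.9% in Ces2e, 44.1% in Ces2a and 43.9% in Ces1d. It was 39.5% in Ces1e, 35.4% in Ces1g and 29.6% in Ces1f. How the study assigned reads that fit several genes is not given in the sources used here. The values of single members within the pairs Ces1b with Ces1c and Ces3a with Ces3b, and those of Ces2a, are therefore uncertain. Those of the other members may be affected too. Sums over a pair are given beside its members, and no sum is given for Ces2a with Gm7208.

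**Figure D1:**
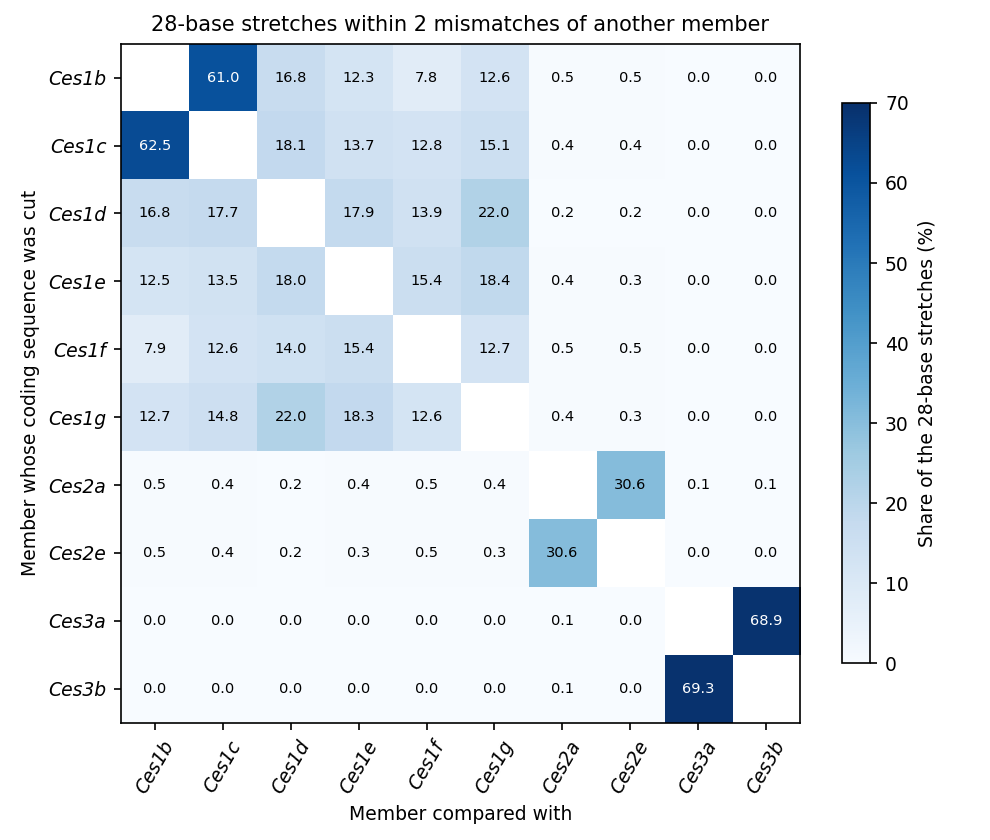
Share (%) of the 28-base stretches of the coding sequence of each member (rows) that match another member (columns) with at most 2 mismatches. The pairs Ces1b with Ces1c and Ces3a with Ces3b stand apart at 61.0% to 69.3%, and no pair across the Ces1, Ces2 and Ces3 groups reaches 1%.

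Levels are given as deposited RPKM, which are reads corrected for gene length and for the library total, so that genes can be compared within a library. The HFD libraries held 834410 to 4405541 reads and the LYC libraries 311050 to 412116. A single read on a gene 1 kb long corresponded to 0.227 to 1.20 RPKM in HFD and to 2.43 to 3.21 RPKM in LYC. The 10 members together received 0.497% to 0.572% of all reads on listed genes in HFD libraries and 0.332% to 0.577% in LYC libraries, that is 37099 and 4479 reads over the groups. Small RNA genes took 2.49% to 3.98% of these reads in HFD and 8.47% to 13.0% in LYC. With them left out, the members received 0.515% to 0.596% in HFD and 0.362% to 0.660% in LYC, where LYC3 was above and LYC1 and LYC2 were below every HFD library. Differences between groups were tested on RPKM divided by edgeR's trimmed-mean factor (TMM) of the library, here called scaled RPKM. Log2 correlations between libraries ran from 0.970 to 0.976 within HFD and from 0.883 to 0.909 within LYC. Hepatocyte markers were abundant in every library, with a summed scaled RPKM of 6 genes between 27200 and 39494.

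Ces1c had the highest level of the 10 genes in all 6 libraries. Ces3a and Ces3b came next in most libraries, while Ces1e was the lowest in the 3 HFD libraries. Among all genes other than small RNA genes, Ces1c ranked between 63 and 102 in a library, and Ces1e between 642 and 1148. In HFD the mean RPKM was 638 ± 58.3 for Ces1c, 398 ± 99.6 for Ces3b, 391 ± 67.0 for Ces3a and 326 ± 75.9 for Ces1b (SD, n = 3). The order of Ces3b, Ces3a and Ces1b was within the spread of the libraries. Ces1d followed at 172 ± 8.37 and Ces1f at 125 ± 6.95, each apart from its neighbours in all 3 HFD libraries. Ces2e at 96.5 ± 6.44 and Ces2a at 90.5 ± 16.9 could not be ordered, and Ces1g at 65.3 ± 8.70 overlapped with Ces2a. The lowest was Ces1e at 49.6 ± 3.52.

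**Figure D2:**
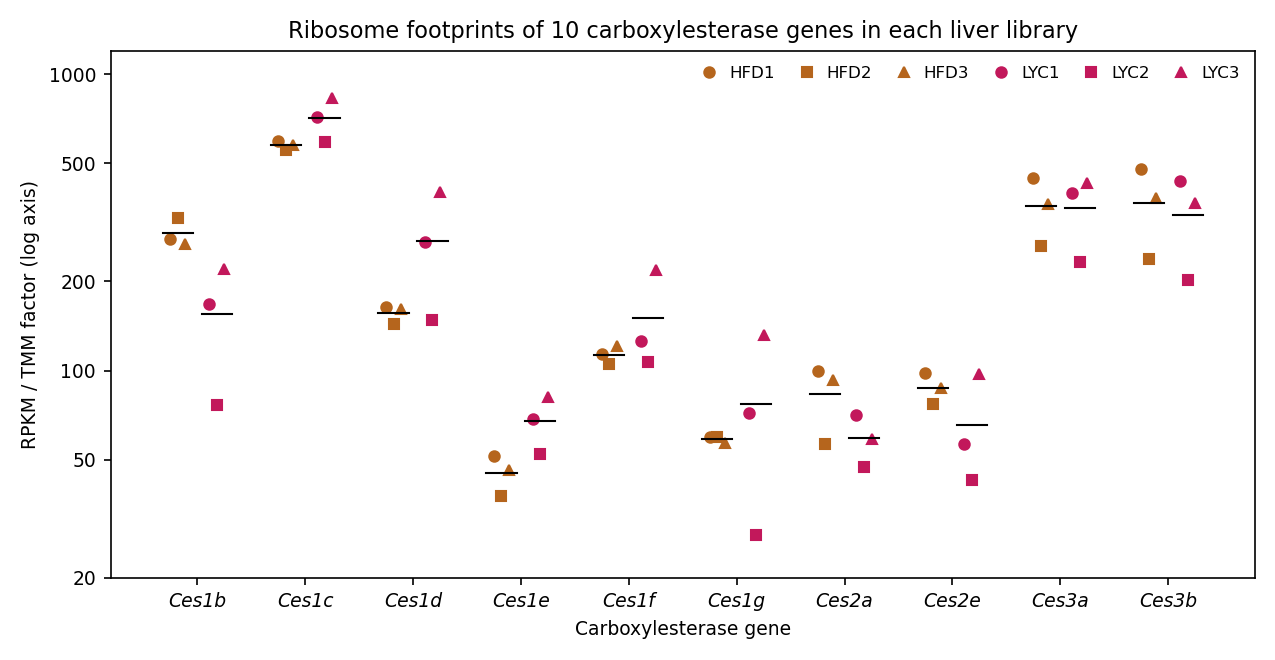
Scaled RPKM (RPKM divided by the TMM factor, log axis) of the 10 carboxylesterase genes, with 1 symbol a library and a black line at the mean of each group of 3. The HFD and LYC libraries are apart for Ces1b and Ces1e and overlap for the other 8 genes, and LYC2 is the lowest LYC library for all 10.

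None of the 10 members was called by limma's two-sided test, where a call needed an absolute log2 fold change above 1 with an unadjusted p below 0.01. The same rule called 13.3% of the 5758 genes tested, 397 higher and 367 lower in LYC. One member, Ces1b, had an unadjusted p below 0.05, as had 29.9% of all genes tested. Neither edgeR's quasi-likelihood test nor DESeq2 on the recovered reads called any member, where they called 15.5% and 15.6% of all genes tested. The log2 fold changes of the members ran from -1.03 to 0.69 with a median of 0.05, and 5 of the 10 were above 0, beside a median of -0.10 over all genes tested. Scaling by total library size moved the median of all genes to -0.36 and the split of calls to 235 higher and 648 lower, and 4 members were then above 0. In scaled RPKM the groups were apart for 2 of 10 members, Ces1b and Ces1e, where 37.7% of all genes tested had groups apart. Groups apart and lower in LYC were found for Ces1b and for 19.2% of all genes tested, and groups apart and higher for Ces1e and for 18.5%.

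**Figure D3:**
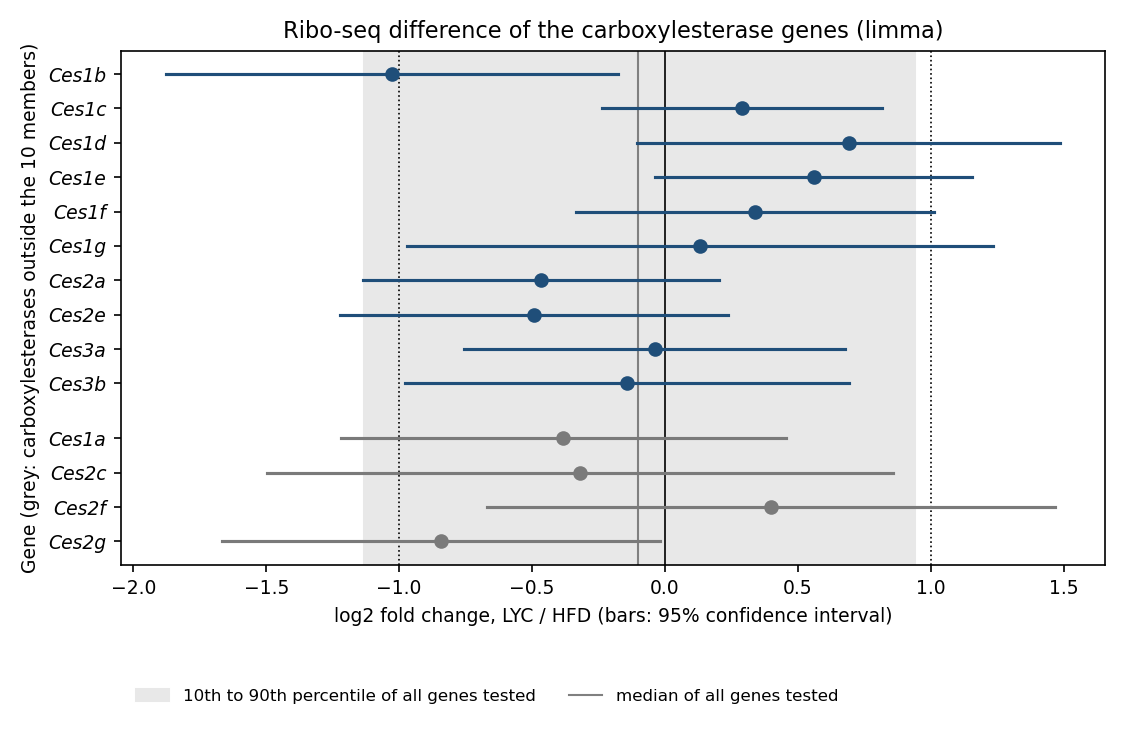
Log2 fold change of LYC over HFD with its 95% confidence interval for the 10 members and, in grey, 4 further carboxylesterase genes. The shaded band spans the 10th to the 90th percentile of all genes tested, from -1.13 to 0.94, the grey line is their median at -0.10, and the dotted lines mark the fold limit of the call rule. All 10 estimates lie within the band, and Ces1b is the lowest.

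With all 6 libraries Ces1b had the largest difference of the family, and without LYC2 the log2 fold changes of Ces1d (1.07), Ces1e (0.73) and Ces1g (0.72) were larger in size than that of Ces1b (-0.59). Its RPKM was 289, 413 and 275 in HFD1, HFD2 and HFD3 and 134, 76.9 and 204 in LYC1, LYC2 and LYC3. Every LYC library was lower than every HFD library. These values stood on 451 to 3574 reads in HFD and on 104, 47 and 165 reads in LYC. The coefficient of variation of scaled RPKM was 47.2% in LYC, where counting error alone would give 11.1%, and 10.9% in HFD, where it would give 3.24%. The log2 fold change was -1.03 (SE 0.37, 95% interval -1.88 to -0.17), which is 0.491 times the HFD level. It had an unadjusted p of 0.0236 and a Benjamini-Hochberg adjusted p of 0.112 in limma, and a smaller p was found for 21.0% of all genes tested. The log2 fold change stayed below 0 in 16 of 16 alternatives, but the call depended on the setting. With scaling by total library size it was -1.31 with an unadjusted p of 0.00401, and without LYC3 it was -1.35 with an unadjusted p of 0.00685, and both passed the rule. Without LYC2 it was -0.59 with an unadjusted p of 0.0369. Over the alternatives the adjusted p ran from 0.0379 to 0.282.

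Ces1c, the near copy of Ces1b that encodes the plasma enzyme, was not lower in LYC, with a log2 fold change above 0 in 16 of 16 alternatives. The size of this value depended on the setting, at 0.003 with scaling by total library size and 0.11 with the trend over gene length removed. The RPKM of Ces1c was 621, 704 and 591 in HFD and 572, 594 and 764 with lycopene, and the groups overlapped. The log2 fold change was 0.29 (SE 0.23, 95% interval -0.24 to 0.82, adjusted p = 0.432 in limma). The ratio of Ces1b to Ces1c needs no scaling between libraries. It was 0.465, 0.587 and 0.465 in HFD1, HFD2 and HFD3 and 0.235, 0.129 and 0.267 in LYC1, LYC2 and LYC3. The highest LYC ratio was below the lowest HFD ratio, and the exact two-sided permutation p was 0.1, the smallest that 3 against 3 libraries allow. With both genes merged by summing their scaled RPKM, the log2 fold change was -0.02 (SE 0.25, adjusted p = 0.960 in limma). The summed scaled RPKM of the pair was 867 ± 21.0 in HFD and 867 ± 192 in LYC (SD, n = 3). The part that read assignment between the near copies has in the difference of Ces1b was not tested.

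**Figure D4:**
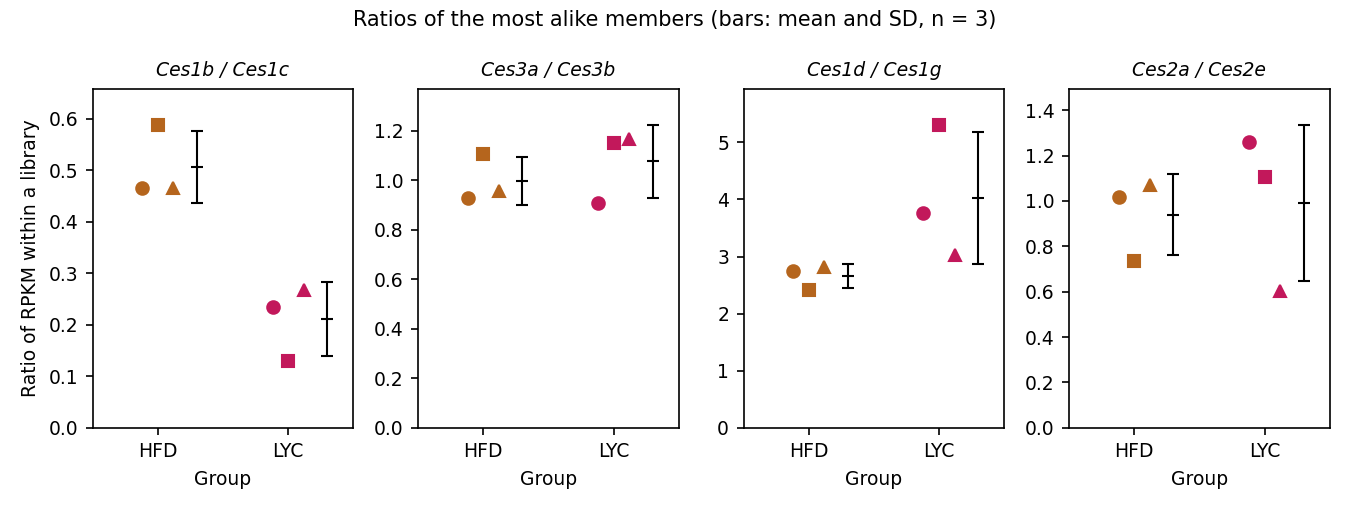
Ratio of RPKM within a library for the 4 most alike pairs of members, with 1 symbol a library (circle, square and triangle for libraries 1, 2 and 3) and the mean and SD of 3 libraries in black. HFD and LYC are apart for Ces1b over Ces1c (0.465 to 0.587 against 0.129 to 0.267) and for Ces1d over Ces1g, and overlap for Ces3a over Ces3b and Ces2a over Ces2e.

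Ces1d, the triacylglycerol hydrolase, had an RPKM of 171, 182 and 165 in HFD and of 217, 149 and 369 in LYC. The HFD libraries lay close together, while LYC3 was far above them and LYC2 lay below all 3. In scaled RPKM LYC2 was at 148, within the HFD range of 144 to 164, and LYC1 and LYC3 were at 271 and 400.3. The log2 fold change was 0.69 (SE 0.35, 95% interval -0.11 to 1.49, adjusted p = 0.224 in limma). Without LYC2 it was 1.07 with an unadjusted p of 0.00271, which passed the rule, and without LYC3 it was 0.36. Over all alternatives the adjusted p ran from 0.0317 to 0.436. Ces1f, its relative, had 119, 133 and 124 RPKM in HFD and 101, 107 and 201 in LYC, with a log2 fold change of 0.34 (95% interval -0.33 to 1.01, adjusted p = 0.472 in limma). This value rested on LYC3, since the log2 fold change without LYC3 was 0.04. LYC1 and LYC2 lay below all 3 HFD libraries in RPKM. In scaled RPKM LYC1 was at 126, above the HFD range of 105 to 121, and LYC2 was within it at 107.

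Ces1e, egasyn, was the other member with groups apart. Its RPKM was 53.6, 47.6 and 47.4 in HFD and 55.0, 52.7 and 74.9 in LYC. In scaled RPKM every LYC library was above every HFD library, at 52.4 to 81.3 against 37.7 to 51.6, while the deposited values overlapped. The log2 fold change was 0.56 (SE 0.26, 95% interval -0.04 to 1.15, adjusted p = 0.191 in limma), and it rested on 45, 34 and 64 reads in LYC1, LYC2 and LYC3.

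Ces1g varied most among the LYC libraries. Its RPKM was 62.2, 75.2 and 58.6 in HFD. In LYC it was 57.6, 28.1 and 122. The highest LYC library was 4.74 times the lowest in scaled RPKM, where the median over all genes tested was 2.14 times, and the 20 reads of LYC2 were the fewest of any member. In HFD the same ratio was 1.05. The log2 fold change of 0.13 (95% interval -0.97 to 1.23, adjusted p = 0.884 in limma) had no stable sign, being -0.15 with scaling by total library size and -0.38 without LYC3. Ces1d over Ces1g was 2.74, 2.42 and 2.82 in HFD and 3.76, 5.30 and 3.03 in LYC, so the groups were apart (exact two-sided permutation p = 0.1, the smallest possible here).

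The Ces2 members, which act on smaller acyl groups and on drugs, were lower in the mean in LYC, and neither was called. Ces2a had an RPKM of 104, 71.5 and 95.8 in HFD and of 56.8, 47.5 and 54.4 in LYC. The deposited values did not overlap, but the scaled values did. Its log2 fold change was -0.47 (SE 0.29, 95% interval -1.14 to 0.20, adjusted p = 0.325 in limma). Ces2e had 102, 97.5 and 89.7 RPKM in HFD and 45.1, 42.9 and 89.9 in LYC, where LYC3 reached the HFD level. Its log2 fold change was -0.49 (SE 0.32, 95% interval -1.22 to 0.24, adjusted p = 0.339 in limma). Both stayed below 0 in 16 of 16 alternatives, and the ratio of Ces2a to Ces2e overlapped between groups, at 0.734 to 1.07 in HFD and 0.605 to 1.26 in LYC.

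The Ces3 members, with the highest likeness of the family, differed little between groups. Ces3a had an RPKM of 464, 333 and 375 in HFD and of 318, 234 and 396 in LYC, and Ces3b had 500, 301 and 392 in HFD and 349, 203 and 338 in LYC. Both genes were lowest in HFD2 within HFD and in LYC2 within LYC. The log2 fold changes were -0.04 for Ces3a (95% interval -0.76 to 0.68, adjusted p = 0.950 in limma) and -0.14 for Ces3b (95% interval -0.98 to 0.69, adjusted p = 0.830). With the pair merged it was -0.09 (SE 0.34). Each sign turned without HFD1 and without LYC2. The ratio of Ces3a to Ces3b was 0.929 to 1.11 in HFD and 0.909 to 1.17 in LYC. These intervals do not show that the levels are equal, since they admit changes of up to 0.592 times and 1.60 times the HFD level for Ces3a.

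The summed scaled RPKM of the 10 members was 2389, 1865 and 2156 in HFD, beside 2385, 1526 and 2835 in LYC. The LYC range enclosed the HFD range, and the difference in mean log2 was 0.03. On the deposited scale it was -0.25, and with a library left out it ran from -0.16 without LYC3 to 0.29 without LYC2, so the sum has no direction that holds under both scalings or without single libraries. Shares within the sum are free of the scaling. Ces1b held 11.6%, 17.5% and 12.4% of the summed RPKM in HFD and 7.04%, 5.01% and 7.80% in LYC. The difference of the mean shares was -7.24 percentage points and ran from -8.36 to -5.40 points with any 1 library left out, a check added after seeing the data. Ces1d held 6.86% to 7.71% in HFD and 9.69% to 14.1% in LYC, and Ces1e held 2.02% to 2.16% in HFD and 2.87% to 3.43% in LYC. Ces2e moved from 4.05% to 4.14% in HFD to 2.37% to 3.44% in LYC. The shares of the other 6 members overlapped between the groups. Ces1c remained the largest share, at 25.0% to 29.9% in HFD and 29.2% to 38.7% in LYC. As shares sum to a whole, a lower share of Ces1b alone raises the others.

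**Figure D5:**
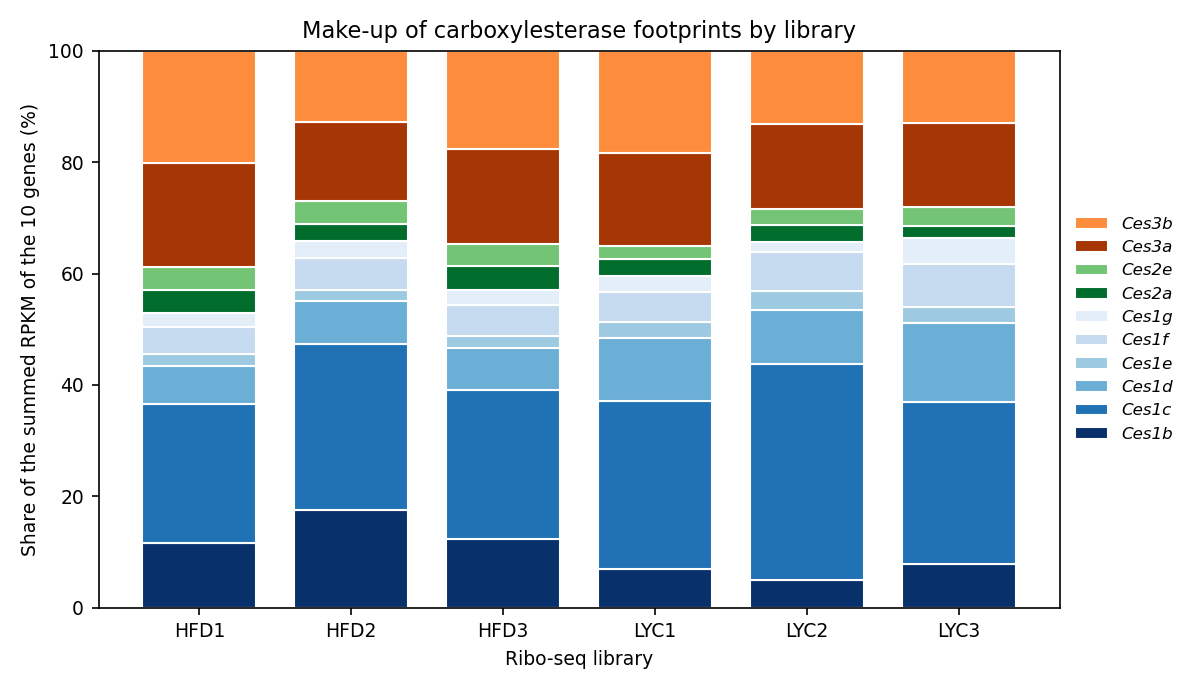
Share (%) of each member in the summed RPKM of the 10 genes, 1 stacked bar a Ribo-seq library. Ces1b, at the bottom, takes 11.6% to 17.5% in HFD and 5.01% to 7.80% in LYC, while Ces3a and Ces3b together take 26.9% to 38.8% in HFD and 28.1% to 35.0% in LYC.

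For 9 of the 10 members, all but Ces2a, the ratio of the highest to the lowest library in scaled RPKM was wider in LYC than in HFD. Over all genes tested the median of this ratio was 2.14 in LYC and 1.38 in HFD. LYC2 was the lowest LYC library for 10 of 10 members in scaled RPKM and for 8 of 10 in deposited RPKM, where it was the lowest for 35.5% and 29.3% of all genes tested. LYC3 was the highest LYC library for 8 of 10 members on both scales, as it was for 33.3% of all genes tested in scaled and 35.7% in deposited RPKM. Within HFD the scaled RPKM was highest in HFD1 for 8 of 10 members and lowest in HFD2 for 8 of 10, beside 33.3% and 31.4% of all genes tested. In deposited RPKM HFD1 and HFD2 were each the highest for 5 members, beside 17.6% and 64.05% of all genes tested. The lowest was HFD3 for 6, HFD2 for 3 and HFD1 for 1, beside 46.3%, 11.3% and 42.3% of all genes tested. Other summed levels were low in LYC2 for some lists and not for others. The 6 hepatocyte markers summed to 27200 scaled RPKM in LYC2 and to 35773 and 39494 in LYC1 and LYC3, and 6 endothelial markers summed to 22.4 in LYC2 and to 95.5 and 129 in the others. Alb made up most of the hepatocyte sum, and of the 6 markers 4 were lowest in LYC2 while Ttr and Ass1 were highest there. Genes of VLDL assembly summed to 1091 in LYC2 and to 1742 and 2075, whereas the sum of 6 Kupffer cell markers was highest there, at 152 against 107 and 105, although Cd5l was lowest there. The sum of the esterases of drug metabolism was level within LYC, at 1496 in LYC2 and 1452 and 1455 in LYC1 and LYC3, and above the 1055, 984 and 922 of HFD. Ephx2 and Pon1 made up most of this sum, Ephx2 being highest and Pon1 lowest in LYC2, and 7 of the 15 genes were lowest there. Also level within LYC was the sum of the receptors of xenobiotic and lipid sensing, at 329 against 330.3 and 358. Sums of 3 marker lists were apart between the groups. Kupffer cell markers summed to 90.1 to 102.6 scaled RPKM in HFD and to 105 to 152 in LYC, but the median log2 fold change of the 4 tested markers was 0.05 and limma called none. Among them Vsig4 was called higher by edgeR and DESeq2, although its deposited RPKM of 6.77 in LYC3 was below every HFD library. In scaled RPKM Vsig4 was at 7.34 in LYC3, at the low end of the HFD range of 7.32 to 11.5. Timd4, which was not tested, stood on 22, 41 and 7 reads in the HFD libraries. Of the LYC libraries LYC2 alone had any Timd4 reads, with 1. Cholangiocyte markers summed to 15.0 to 23.7 in HFD and to 3.62 to 9.19 in LYC, on 341 and 15 reads, mostly of Spp1, and Krt19, Krt7 and Epcam were at 0 in every LYC library. Adipocyte markers summed to 4.79 to 12.01 scaled RPKM in HFD and to 13.0 to 28.5 in LYC, so that every LYC library was above every HFD library, on 32 reads over the LYC libraries. Fabp4 and Cidec, which other cells also express, carried this sum. Fabp4 overlapped between the groups, and Cidec made the difference, at 1.37 to 1.65 scaled RPKM in HFD and 3.71, 16.8 and 24.6 in LYC, on 2, 9 and 16 reads. Adipoq was at 0 in 5 of 6 libraries, and Plin1, Lep and Retn were at 0 in all 6. With no filter on low genes limma called Cidec higher (log2 fold change 2.39) and Timd4 (-1.76) and Krt7 (-1.03) lower. Of all 15749 genes it then called 434 higher and 718 lower. Pancreatic acinar markers had 4 reads over the LYC libraries, and 5 of 6 were listed at 0 in every library. The second deposited table, labelled RNA-seq, has counts of 43, 10 and 24 for Amy2b, 1 of these 5, in HFD. In LYC they were 4, 0 and 4, so a listed 0 is not taken as absence. In bulk liver, fewer cells of a type and less RNA per cell cannot be told apart, and the part of these markers in the levels of the members and in the differences between groups was not tested.

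Of 11 further carboxylesterase genes, 9 were found by symbol and 4 passed the filter. None was called by limma, edgeR or DESeq2, and 1 of the 4 had an unadjusted p below 0.05 in limma. That gene was Ces2g, at 14.8, 23.3 and 13.0 RPKM in HFD and 5.32, 5.62 and 11.9 in LYC, with a log2 fold change of -0.84 (SE 0.36, adjusted p = 0.161). Ces1a, next to Ces1b on the chromosome, was at 21.6 ± 5.08 RPKM in HFD and 14.1 ± 6.98 in LYC, with a log2 fold change of -0.38. Ces2c had -0.32 and Ces2f 0.40. Ces2b, Ces2h and Ces4a had between 10 and 86 reads over the HFD libraries and 0 to 9 over the LYC libraries and were not tested, and Ces2d-ps and Ces5a were listed at 0 in all 6 libraries. The second deposited table, labelled RNA-seq, has counts of 93, 21 and 85 for Ces2d-ps in HFD and of 12, 1 and 8 in LYC, so a listed 0 is not taken as absence. As listed in the Ribo-seq table, the 10 members had 37099 reads in HFD and the further genes 1371.

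Genes that act beside the carboxylesterases were read from lists chosen by role. Of 12 tested genes of triglyceride and ester hydrolysis none was called by limma, edgeR or DESeq2, and 1 had an unadjusted p below 0.05. Aadac, an endoplasmic reticulum hydrolase, was at 338 ± 58.4 RPKM in HFD and 183 ± 19.6 in LYC (log2 fold change -0.59, adjusted p = 0.176 in limma), and G0s2, an inhibitor of adipose triglyceride lipase, was at 71.4 ± 18.8 and 105 ± 38.3 (0.80, adjusted p = 0.209). Of 14 tested esterases and hydrolases of drug metabolism, limma called none, while 4 of the 14 had an unadjusted p below 0.05, beside 29.9% of all genes tested, and edgeR and DESeq2 each called 1. That gene, named after its values were seen, was Acot4, a peroxisomal acyl-CoA thioesterase, at 6.15, 18.2 and 8.76 RPKM in HFD and 13.1, 22.1 and 35.5 in LYC (log2 fold change 1.32, SE 0.41, unadjusted p = 0.0116, adjusted p = 0.0742 in limma). The most abundant were Ephx2, soluble epoxide hydrolase, with a log2 fold change of 0.79 (adjusted p = 0.0872), and Pon1, a lactonase of high-density lipoprotein, with 0.90 (adjusted p = 0.0733). Among 9 tested genes of VLDL assembly none was called by the 3 tools, and 1 had an unadjusted p below 0.05. Apob, the structural protein of VLDL, had -0.50 (adjusted p = 0.332), and P4hb, a subunit of the lipid transfer complex that loads it, had 0.00 (adjusted p = 0.999).

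Of the receptors that return proteins to the endoplasmic reticulum, 2 were tested and neither was called by limma, edgeR or DESeq2. Kdelr1 was at 46.2, 65.8 and 49.5 RPKM in HFD and at 24.9, 16.9 and 28.6 in LYC, with a log2 fold change of -0.90 (SE 0.30, unadjusted p = 0.0156, adjusted p = 0.0871 in limma). It stayed uncalled in 14 of 16 alternatives. With the trend over gene length removed limma called it lower (log2 fold change -1.14, unadjusted p = 0.0063). Kdelr2 was at 50.1 ± 4.31 and 48.3 ± 15.8 RPKM, with a log2 fold change of 0.17. Among 9 tested receptors and factors of xenobiotic and lipid sensing, 1 was called lower and 1 higher, both also by edgeR and DESeq2. Nr1h3, the oxysterol receptor LXR alpha, fell from 36.6, 50.7 and 40.1 RPKM in HFD to 8.77, 7.42 and 18.2 in LYC (log2 fold change -1.61, SE 0.35, adjusted p = 0.0238 in limma), and it was called in 16 of 16 alternatives. Nr1h4, the bile acid receptor FXR, rose from 21.2, 36.1 and 35.2 RPKM to 73.2, 52.1 and 61.5 (log2 fold change 1.30, SE 0.31, adjusted p = 0.0306 in limma), and it was called in 14 of 16 alternatives, failing without HFD1 and without LYC1. Over the 9 genes the median was -0.04. Calls were made for 6.89% of all genes tested in the higher and 6.37% in the lower direction.

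The second deposited table is labelled RNA-seq, with counts for 3 HFD and 3 LYC libraries. Its columns moved with the Ribo-seq libraries. Over 5411 genes the deviations of its columns from their group means correlated at 0.939 to 0.971 with 1 Ribo-seq library each, which for HFD was not the library of the same number. HFD1, HFD2 and HFD3 of that table went with Ribo-seq HFD2, HFD3 and HFD1. It was therefore not read as an independent measure of mRNA, and no translational efficiency was computed. EdgeR's quasi-likelihood test on its counts called none of the 10 members, beside 16.6% of 5921 genes tested, and DESeq2 called none. The smallest p-values of the members were those of Ces1b, with a log2 fold change of -0.92 (SE 0.31, adjusted p = 0.0513 in edgeR), and Ces1d, with 0.81 (SE 0.30, adjusted p = 0.0707 in edgeR).

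The counts of this table were set beside the recovered Ribo-seq reads of the library that each column went with. For Ces1b the count was 0.491 to 0.536 times the Ribo-seq reads, and for Ces3b it was 0.573 to 0.669 times. For their near copies it was higher, at 1.29 to 1.45 times for Ces3a and 1.01 to 1.29 times for Ces1c. For Ces1c it was 1.20 to 1.29 times in HFD and 1.01 to 1.10 times in LYC, and its log2 fold change was 0.15 in this table. Outside these pairs it was 1.125 to 1.49 times for Ces1e, 1.03 to 1.20 times for Ces1g and 0.854 to 1.06 times for Ces2e. Summed over each pair, the counts were 0.948 to 0.997 times the Ribo-seq reads for Ces1b with Ces1c and 1.00 to 1.03 times for Ces3a with Ces3b. Over all 10 members they were 1.00 to 1.03 times the reads. The sum of a near-identical pair was thus nearly the same in the 2 tables, while the ratio of its 2 genes was not. Whether reads were assigned anew between the genes of a pair was not tested. In this table too the ratio of Ces1b to Ces1c was apart between groups, at 0.199 to 0.244 in HFD and 0.0655 to 0.119 in LYC. Since the columns move with the Ribo-seq libraries, this ratio is no independent measure. The part of read assignment in it was not tested. The ratio of Ces3a to Ces3b was 2.12 to 2.35 in HFD and 1.95 to 2.81 in LYC in this table, where it was near 1 in the Ribo-seq table.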

How the data were processed

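Per the labels and the study's methods, reads were cleaned with cutadapt and bowtie2, aligned to GRCm38/mm10 with STAR and quantified with FANSE2. For Ribo-seq the authors deposited RPKM per gene, and for the libraries labelled RNA-seq they deposited counts and RPKM. Versions, filters and the handling of reads with several matches are not given in the sources used here. The 25033 entries held 26 names turned into dates.

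The reads behind each RPKM were recovered with gene lengths from the second table (11129 genes) or fitted to the gene (4620 genes, among them Ces3a and Ces3b). Differences were tested with limma 3.58.1 (trend, two-sided) on log2(RPKM / TMM factor + 1) over the 5758 genes kept by filterByExpr of edgeR 4.0.16 on these reads, with Benjamini-Hochberg adjustment over all of them. This scale understates fold changes of low genes. The second table was tested with edgeR on its counts. DESeq2 1.42.0 was an alternative for both, and the scripts were tested on simulated data. The genes named were the members, the other carboxylesterases, genes of the role lists called by limma and, in lists with no such call, the 2 most abundant. Acot4 and the single markers of cell types were named outside this rule. Members and lists were chosen with earlier results of these data known. Planned p-values for sums and shares over the members are not given. Sequences come from RefSeq transcripts on GRCm38. Software was R 4.3.3, Python 3.11.15, scipy 1.17.1 and Biopython 1.88.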

Additional observations from a re-analysis of the deposited data

How the results depend on the processing

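Depth limits the LYC libraries, where the members stood on 20 to 579 reads each, and intervals cover the spread of 3 libraries a group. Of 160 refits of the members, 154 kept the sign reported, and 3 passed the call rule, Ces1b with scaling by total library size or without LYC3 and Ces1d without LYC2. The number of members called was 1 with scaling by total library size, 0 to 1 with a library left out, and 0 in the other alternatives. All genes called numbered 764, and 1152 with no filter on low genes, 293 at an unadjusted p below 0.001, and 441 to 1089 with a library left out. In the table labelled RNA-seq the members called were 1 with no filter and 0 to 1 with a library left out. Deviations of same-numbered libraries from their group means correlated at 0.107, 0.0252 and 0.00678. For libraries of different numbers these correlations ran from -0.100 to 0.0666, so the numbers were not taken as a pairing. With the replicate block 0 members and 747 genes were called. Left-out Ces1b shares and merged pairs were chosen after seeing the data. The cause of these changes was not tested.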
